A study of Rattus norvegicus with 16 samples.

Results

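The genes described here encode the renal ion, glucose and organic ion transporters of 8 solute carrier families, measured in embryonic kidneys of 2 rat strains. Probe sets were taken when they carried a single gene symbol beginning with Slc4a, Slc5a, Slc9a, Slc12a, Slc13a, Slc17a, Slc22a or Slc34a, with Slc4a1, the red cell anion exchanger, left out. This gave 64 of 21371 gene-level probe sets, 1 for each of 64 genes, and 1098 of 213067 exon-level probe sets in 69 genes. The 2 levels shared 63 genes. Slc22a21 was named at gene level only, and 6 genes (Slc5a1l1, Slc17a4, Slc17a6, Slc22a5, Slc22a9 and Slc22a17) at exon level only. Of 83 genes of these families in RefSeq (rat assembly GRCr8), 69 were measured at either level. The prefix also took in Slc4a1ap, which encodes an adaptor protein and no transporter. At gene level the families held 10 Slc4a, 12 Slc5a, 7 Slc9a, 7 Slc12a, 5 Slc13a, 6 Slc17a, 14 Slc22a and 3 Slc34a genes.

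The tubule of the kidney reclaims salt, bicarbonate, glucose, phosphate, sulfate and organic acids from the filtrate and secretes organic ions into it. The proximal tubule carries much of this work through sodium-coupled carriers on its brush border and exit carriers on its basolateral side, and the thick ascending limb and distal convoluted tubule add cation-chloride cotransporters. In the embryo these carriers come on as nephrons mature, after the first vesicles and tubules have formed. Several members of the same families serve all cells, by setting their volume and pH, and others serve neurons.

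Whole male kidneys were compared between the Munich Wistar Frömter rat (MWF) at E15.5 (embryonic day) and the spontaneously hypertensive rat (SHR) at E16.0, with 4 arrays per strain and no treatment. The MWF strain is a model of inherited albuminuria and low nephron number, and the SHR is a model of inherited hypertension. Total RNA was hybridised to Affymetrix rat gene arrays, and the 8 hybridisations were summarised both by gene and by exon probe set. The gene and exon levels are therefore not independent. Strain and embryonic day cannot be told apart, and no label states whether the 4 samples of a strain were different animals. A p-value here covers the spread among these samples, which may be technical. In whole tissue, fewer cells of a type and less RNA per cell cannot be told apart either.

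Values are log2 intensities, and a difference is the MWF mean minus the SHR mean. Of 12 kidney identity markers listed, 9 were measured and all 9 stood above the receptor reference defined in the next paragraph. Of 12 genes listed for the proximal tubule, 11 were measured and 3 (Lrp2, Dab2 and Cdh16) stood above it. Cubn, Aqp1, Hnf4a and Fbp1 were among those below it. Whether the listed genes were confined to that segment here was not tested. The mean of that list ran from 7.39 to 7.54 in MWF and from 7.35 to 7.61 in SHR. In MWF 5 of the 11 were higher and 6 lower (median -0.03). By the rule given below, Cdh16 and Pdzk1ip1 were called higher and none lower, where 3.18% and 3.4% of all probe sets were. Arrays stood apart, also within a strain, in markers of adrenal medulla and sympathetic ganglia. The mean of Th, Dbh, Chga and Chgb was 8.14, 6.14, 6.29 and 6.30 on MWF arrays 1 to 4, against 10.78, 6.03, 10.995 and 11.16 on SHR arrays 1 to 4, so SHR array 2 lay with the MWF arrays. All 8 measured genes of that list were lower in MWF and none was called, and its mean ran from 6.37 to 7.53 in MWF and from 6.36 to 9.96 in SHR. The neuron list moved with it, at 7.68 to 7.89 in MWF and 7.64 to 8.90 in SHR, and the stroma list lay at 10.55 to 10.78 in MWF and 10.56 to 11.24 in SHR. The liver list varied within both strains, at 7.26 to 9.69 in MWF and 6.80 to 9.66 in SHR, and the endothelium list lay at 9.12 to 9.37 in MWF and 9.33 to 9.80 in SHR. The red cell list was higher in MWF, at 9.58 to 10.70 against 8.79 to 9.35 in SHR. The leukocyte list was lower, at 7.38 to 7.77 against 7.88 to 8.53. Of 9 measured red cell genes 5 were called higher, and of 5 leukocyte genes 3 were called lower. Among 8 neuron and 4 stroma genes 1 each was called lower, and no liver or endothelium gene was called. The part of these markers in the results was not tested, except through the fits named beside them. Only the mean of Th, Dbh, Chga and Chgb was used as a covariate.

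At gene level, few transporter genes lay above a reference drawn from receptor genes of the nose. As a description of low signal, the 95th percentile of the mean intensity of 105 olfactory and vomeronasal receptor probe sets, 8.21 at gene level, served as a reference. Of the 64 members 11 lay above it and 53 below, where 10568 of all 21371 probe sets lay above and 10803 below. As a 95th percentile it exceeds most of the receptor probe sets themselves. The same percentile at exon level was 6.58, and 437 of 1098 member probe sets lay above it, where 141714 of all 213067 did. Slc4a2, Slc4a3 and Slc22a23, below the reference at gene level, had 20 of 24, 19 of 24 and 11 of 11 exon-level probe sets above it. The 4 called members described later are all among the 53, Slc5a6 only just, at 8.197 against 8.207. Above the exon-level reference lay 18 of 20 probe sets of Slc5a6, 12 of 15 of Slc9a9 and 12 of 24 of Slc4a8. Slc22a21 had no probe set at that level. The 11 were Slc4a7, Slc4a4 and Slc4a1ap, the myo-inositol carrier Slc5a3, the Golgi sodium/proton exchanger Slc9a8, the cation-chloride cotransporters Slc12a2, Slc12a4 and Slc12a7, the lysosomal sialic acid carrier Slc17a5, the vesicular glutamate carrier Slc17a7, and Slc22a15. For Slc17a7, however, only 1 of 12 exon-level probe sets lay above the reference of that level. No Slc13a or Slc34a gene was among them, nor were the classical carriers of the mature nephron Slc5a1, Slc5a2, Slc9a3, Slc12a1, Slc12a3, Slc22a6 or Slc22a8. The brightness of a probe set also depends on its probes, detection calls were not analysed here, and no order of expression between genes is read from it.

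**Figure D1:**
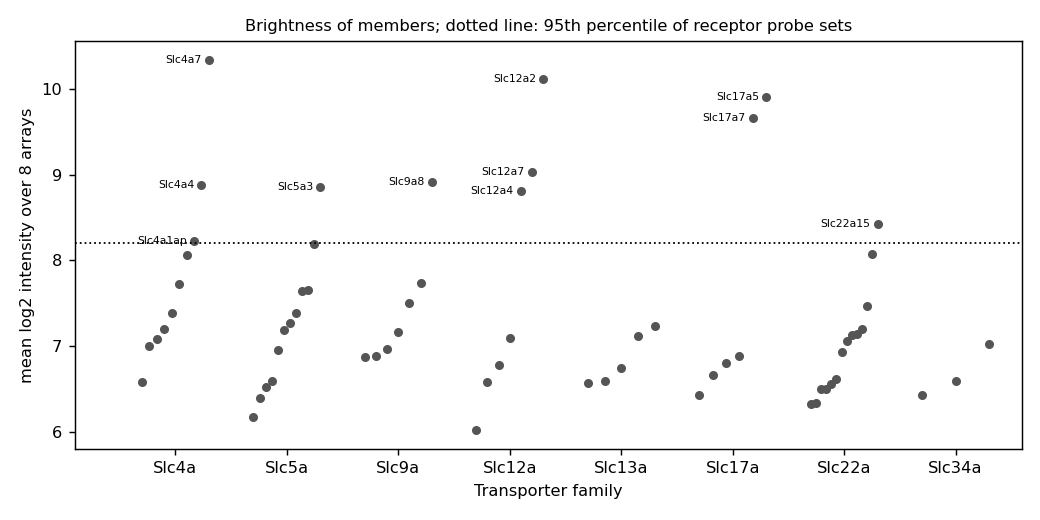
Mean log2 intensity over the 8 arrays (vertical axis) of each of the 64 gene-level members, 1 point per gene, arranged by family and sorted within it. The dotted line is the receptor reference at 8.21; the 11 named members lie above it, and the Slc13a and Slc34a families lie wholly below.

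Differences between the strains were small. A member was called when its adjusted p was under 0.05 in limma fitted across all probe sets, with Benjamini-Hochberg adjustment. By that rule 4 of 64 members (6.25%) were called at gene level, against 6.58% of all probe sets. In MWF 2 were higher (Slc22a21 and Slc5a6), where 3.18% of all probe sets were, and 2 were lower (Slc4a8 and Slc9a9), where 3.4% were. The strains did not overlap in 9 members (14.1%), 7 higher and 2 lower in MWF, against 14.4% of all probe sets (7.36% higher and 7% lower). At an unadjusted p under 0.05 there were 13 members (20.3%), against 22.4% of all probe sets. These shares lay near the background. None of the 64 members differed by 1.5-fold, whereas 441 of all probe sets (2.06%) were called and differed by at least that.

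At gene level the direction of the differences was uneven. Of the 64 members 49 were above 0, with a median difference of 0.11, against 56.3% above 0 and a median of 0.02 over all probe sets. Among the 53 members below the receptor reference 43 were above 0 (81.1%, median 0.13), where 59.5% of the 10803 probe sets below it were (median 0.04). Among the 11 members above the reference 6 were above 0 (median 0.04). At exon level the imbalance was smaller, with 59.5% of member probe sets above 0 (median 0.06) against 52.5% of all (median 0.01). There, 61.6% of the member probe sets above that level's reference were above 0, and 58.1% of those below it. These counts are a description over genes that share the same 8 arrays and have no test, and the red cell and sympathoadrenal values given above move between the same strains.

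**Figure D2:**
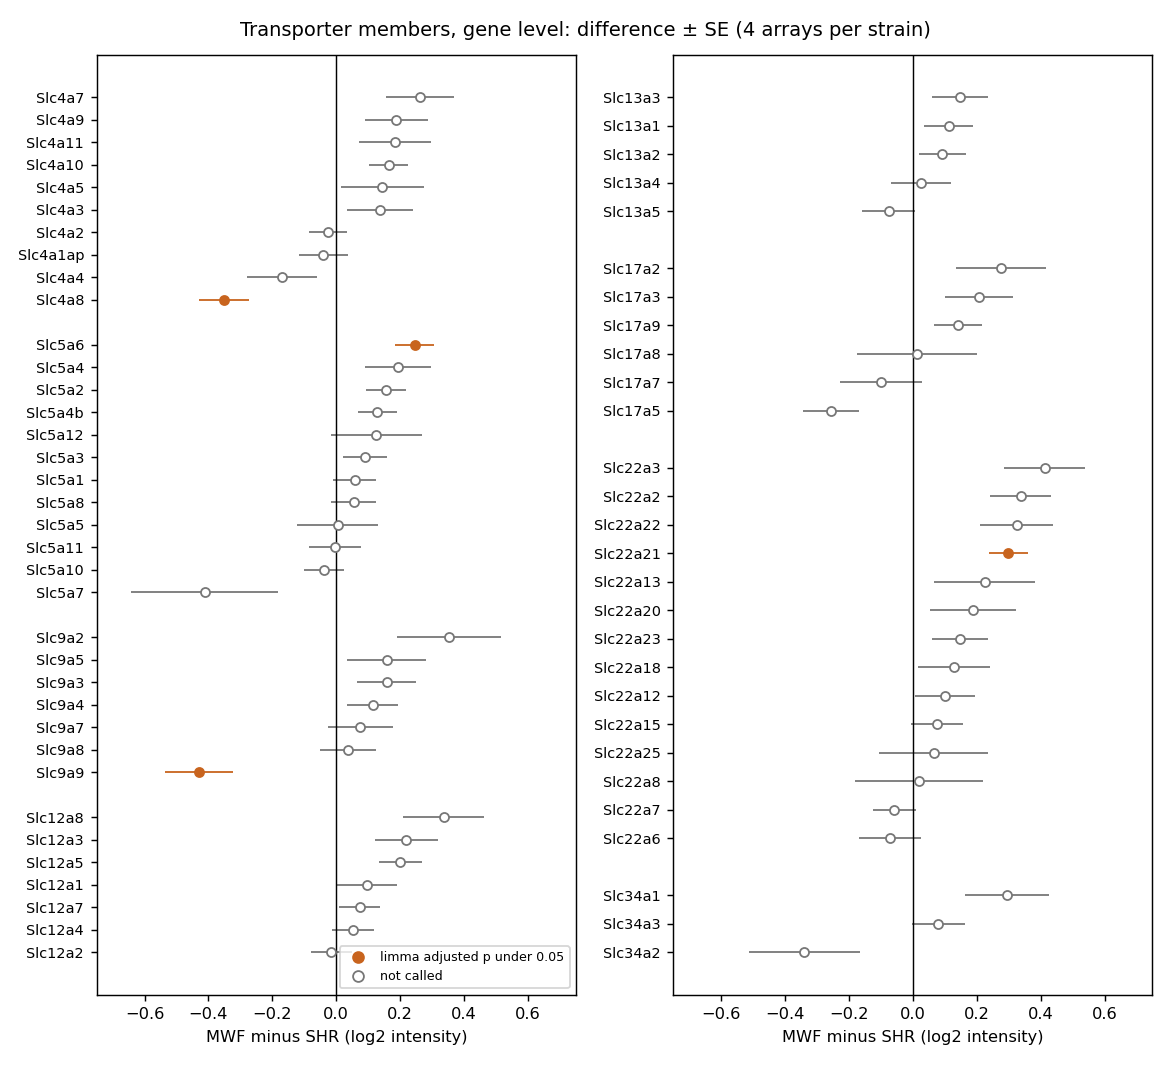
Gene-level difference in log2 intensity, MWF minus SHR, for each of the 64 members (horizontal axis) with its standard error from limma, grouped by family; filled points have an adjusted p under 0.05. The points lie between -0.43 and 0.41, and the 4 filled ones are Slc4a8, Slc5a6, Slc9a9 and Slc22a21.

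The Slc4a family moves bicarbonate. Of its 10 genes 6 were above 0 (median 0.14) and 1 was called, Slc4a8. Slc4a8, which exchanges sodium and bicarbonate for chloride, fell in MWF. It read 6.85, 6.83, 6.89 and 6.76 on MWF arrays 1 to 4, against 7.24, 6.98, 7.20 and 7.31 on SHR arrays 1 to 4. All MWF arrays lay below all SHR arrays, and SHR array 2 came nearest to them. The means were 6.83 ± 0.05 in MWF and 7.18 ± 0.14 in SHR (SD, n = 4 each), a difference of -0.35 ± 0.08 (SE; limma adjusted p = 0.0303), or 1.28-fold. At exon level 21 of its 24 probe sets were lower in MWF, with a median of -0.32. The gene-level call was lost when any 1 array other than SHR array 2 was left out, with differences between -0.42 and -0.31 and adjusted p up to 0.0838. With the sympathoadrenal mean as a covariate the difference was -0.20 (adjusted p = 0.248).

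One exon-level probe set of Slc4a8, number 10899297, was called by itself, although it averaged 6.33 over the 8 arrays, below the receptor reference of that level (6.58). It read 6.08, 5.59, 5.67 and 5.61 in MWF, against 6.66, 7.02, 6.98 and 7.03 in SHR. No MWF array reached an SHR array, and the difference was -1.19 ± 0.14 (SE; limma adjusted p = 0.00318). It stayed called with each array left out in turn, at -1.30 to -1.14.

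Slc4a4 encodes the sodium bicarbonate cotransporter through which proximal tubule cells return bicarbonate to the blood. Its gene-level values overlapped, at 8.61, 8.70, 9.03 and 8.83 in MWF and 9.11, 9.08, 8.90 and 8.77 in SHR, and the difference of -0.17 ± 0.11 (SE) was not called (limma adjusted p = 0.404). Below that level, 2 of its 27 exon-level probe sets stood far from the other 25. Probe set 10776009 read 6.36, 6.03, 7.14 and 5.81 in MWF, against 8.96, 8.91, 8.16 and 8.78 in SHR. The means were 6.33 ± 0.58 in MWF and 8.70 ± 0.37 in SHR (SD, n = 4 each). It was lower in MWF (difference -2.37 ± 0.29, SE; limma adjusted p = 0.00426), and the strains did not overlap. Probe set 10776021 read 6.30, 6.79, 6.73 and 6.46 in MWF, against 8.56, 8.43, 8.51 and 8.01 in SHR. It was lower in MWF too (difference -1.81 ± 0.16, SE; limma adjusted p = 0.00062), again without overlap.

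The other 25 Slc4a4 probe sets differed by -0.56 to 0.50, with 10 higher and 15 lower in MWF and none called. Over both strains, 24 of the 27 probe sets averaged above the receptor reference of the exon level (6.58). The 2 called ones did so through the SHR arrays, since their MWF means, 6.33 and 6.57, lay below it. Each value was then taken relative to the median of the gene's other probe sets on the same array. The 2 probe sets differed by -2.40 ± 0.27 and -1.77 ± 0.18 (SE; limma adjusted p = 0.00299 and 0.00158) in that relative fit too. Both stayed called with each array left out in turn, at -2.64 to -2.19 and at -1.93 to -1.72. SHR array 2, which lacked the sympathoadrenal signal, read 8.91 and 8.43 on these 2 probe sets, within the range of the other SHR arrays. Any part of that signal in the 2 differences was not tested. The 2 are the 12th and 23rd probe sets of the gene in order of their numbers, and no source used here ties those numbers to an exon. A sequence difference between the strains under the probes and a difference in splicing were not tested, since probe sequences and strain variants were not analysed here.

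**Figure D3:**
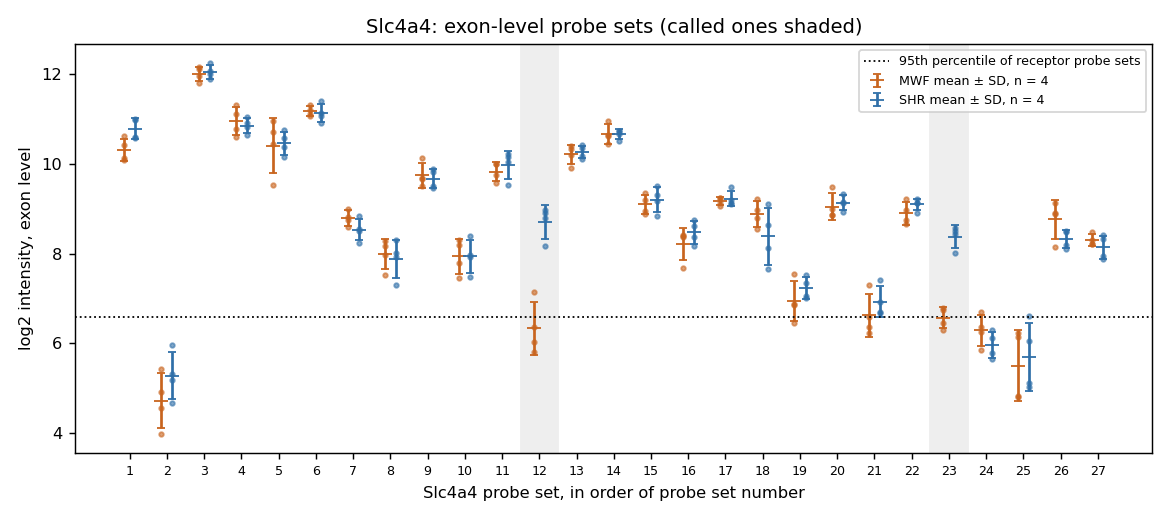
Log2 intensity of each of the 27 exon-level probe sets of Slc4a4 (vertical axis) on every array, in order of probe set number, with MWF and SHR arrays in separate colours and the 2 called probe sets shaded. The MWF points of the shaded sets lie at 5.81 to 7.14 and 6.30 to 6.79, below all SHR points of the same set, and the strains run together elsewhere.

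Among the other Slc4a genes, Slc4a7, an electroneutral sodium bicarbonate cotransporter found in many tissues, averaged 10.47 ± 0.13 in MWF and 10.21 ± 0.20 in SHR (SD, n = 4 each). The difference of 0.26 ± 0.11 (SE) was not called (limma adjusted p = 0.186), although 23 of its 26 exon-level probe sets were above 0. Slc4a10, known mainly from brain, read 6.56 to 6.75 in MWF and 6.48 to 6.53 in SHR, without overlap and uncalled at gene level (0.16 ± 0.06, SE; limma adjusted p = 0.144). Its exon-level probe set 10836445, below the receptor reference of that level, was called at 1.23 ± 0.24 (SE; limma adjusted p = 0.0364), a call lost in 6 of the 8 fits with 1 array left out (1.05 to 1.41). Slc4a2 and Slc4a3, anion exchangers, differed by -0.03 and 0.14. Slc4a5, Slc4a9 and Slc4a11 differed by 0.14, 0.19 and 0.18, none called.

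The Slc5a family couples sodium to glucose, inositol, iodide, vitamins and other solutes. Of its 12 genes 9 were above 0 (median 0.07), and 1 was called. Slc5a6, the carrier of biotin, pantothenate and lipoate, rose in MWF. It read 8.29, 8.33, 8.43 and 8.24 on MWF arrays 1 to 4, against 8.09, 8.12, 8.08 and 8.01 on SHR arrays 1 to 4. Every MWF array lay above every SHR array, and the means were 8.32 ± 0.08 in MWF and 8.07 ± 0.05 in SHR (SD, n = 4 each). The difference was 0.25 ± 0.06 (SE; limma adjusted p = 0.046), or 1.19-fold. At exon level 19 of 20 probe sets were higher in MWF, with a median of 0.25.

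Probe set 10883192 of Slc5a6 was called by itself. It read 6.95, 7.24, 7.04 and 7.18 in MWF, against 6.48, 5.96, 6.06 and 6.26 in SHR. The difference was 0.91 ± 0.13 (SE; limma adjusted p = 0.00997), without overlap, and stayed called with each array left out in turn (0.83 to 1.01). Only the removal of SHR array 2 left the gene-level call in place, and the differences with 1 array left out were 0.21 to 0.27 with adjusted p up to 0.126. With the sympathoadrenal covariate the difference was 0.20 (adjusted p = 0.259), and from the median of the exon-level probe sets on each array it was 0.13 (adjusted p = 0.412).

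The glucose carriers themselves were not called. Slc5a2, the sodium glucose cotransporter of the early proximal tubule, read 7.37, 7.33, 7.37 and 7.34 in MWF, against 7.12, 7.13, 7.31 and 7.24 in SHR. The gene-level arrays did not overlap (0.16 ± 0.06, SE; limma adjusted p = 0.173), but only 6 of its 15 exon-level probe sets were above 0, with a median of -0.09. Slc5a1, the carrier of the late proximal tubule and gut, differed by 0.06 ± 0.07 (SE; limma adjusted p = 0.67), and Slc5a4 and Slc5a10, related sugar carriers, by 0.19 and -0.04. Slc5a3 averaged 8.90 ± 0.06 in MWF and 8.81 ± 0.11 in SHR (SD, n = 4 each; limma adjusted p = 0.497). The choline carrier of cholinergic neurons, Slc5a7, was the lowest of the family in difference at -0.41 ± 0.23 (SE; limma adjusted p = 0.333), and 7 of its 8 exon-level probe sets were lower in MWF. The monocarboxylate carriers Slc5a8 and Slc5a12, the iodide carrier Slc5a5 and the inositol carrier Slc5a11 lay between -0.0039 and 0.13.

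The promoters of Slc4a8 and Slc5a6 are shown because these were the members whose gene-level call came with an exon-level probe set that stayed called with each array left out. The sequences are RefSeq's for GRCr8, 250 bases before to 50 after the annotated start, both on the plus strand, at chr7:133742580-133742879 for Slc4a8 and chr6:31040150-31040449 for Slc5a6. They are of the assembly and not of MWF or SHR. Capitals mark the letters of the motifs searched on both strands: TATAAA for the TATA box, GGGCGG for the GC box, GTTAAT for a partial site of the factor Hnf1, and CCAAT for the box of that name, which reads ATTGG on the opposite strand.
Slc4a8: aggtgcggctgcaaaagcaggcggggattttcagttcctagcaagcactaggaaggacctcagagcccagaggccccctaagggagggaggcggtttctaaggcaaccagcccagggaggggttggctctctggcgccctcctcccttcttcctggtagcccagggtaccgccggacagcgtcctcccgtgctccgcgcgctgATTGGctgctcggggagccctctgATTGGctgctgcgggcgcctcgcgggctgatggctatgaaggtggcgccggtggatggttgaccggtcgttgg
Slc5a6: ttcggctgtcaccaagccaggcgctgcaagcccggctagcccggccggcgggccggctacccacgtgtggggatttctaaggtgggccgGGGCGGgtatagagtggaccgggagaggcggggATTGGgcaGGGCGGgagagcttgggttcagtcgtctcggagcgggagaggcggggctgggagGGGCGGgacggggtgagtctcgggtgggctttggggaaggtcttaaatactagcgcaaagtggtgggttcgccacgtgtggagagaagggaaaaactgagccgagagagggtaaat
The Slc4a8 window held 2 CCAAT matches, both as ATTGG, with 20 CpG and 65.7% G and C. The Slc5a6 window held 3 GGGCGG matches and 1 CCAAT match, with 24 CpG and 65.3% G and C. Neither held TATAAA or GTTAAT. Windows were found for 63 of the 70 member genes, 65 in all. Of these, 36.9% held CCAAT, 32.3% GGGCGG, 12.3% TATAAA and 6.15% GTTAAT, against 37.5%, 33.1%, 14.2% and 7.45% of the 33469 windows of all genes. A match is letters only, and no binding was measured.

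The Slc9a family exchanges sodium for protons. Of its 7 genes 6 were above 0 (median 0.11), and the exception was the called one. Slc9a9, an exchanger of endosomes, fell in MWF. It read 7.71, 7.51, 7.56 and 7.33 on MWF arrays 1 to 4, against 8.08, 7.70, 8.06 and 7.99 on SHR arrays 1 to 4. The strains overlapped, because SHR array 2 lay just under MWF array 1, the MWF array with the most sympathoadrenal signal. The means were 7.53 ± 0.16 in MWF and 7.96 ± 0.18 in SHR (SD, n = 4 each), a difference of -0.43 ± 0.11 (SE; limma adjusted p = 0.0469), or 1.35-fold. With the sympathoadrenal covariate it was -0.20 (adjusted p = 0.346), and without both SHR array 2 and MWF array 1 it was -0.58 (adjusted p = 0.00448). The call was lost without any 1 of MWF arrays 2, 3 and 4 or SHR arrays 1, 3 and 4, at -0.52 to -0.36 over all arrays left out.

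At exon level 13 of 15 Slc9a9 probe sets were lower in MWF, with a median of -0.46. Probe set 10912297 read 8.03, 8.00, 8.22 and 7.76 in MWF, against 8.63, 8.55, 8.86 and 8.85 in SHR, and it was called at -0.72 ± 0.13 (SE; limma adjusted p = 0.0242). Here SHR array 2 lay with the other SHR arrays, and the strains did not overlap. That call was lost in 6 of the 8 fits with 1 array left out, at -0.79 to -0.64. Relative to the other probe sets of the gene, 10912294 was higher in MWF by 0.69 ± 0.11 and 10912295 differed by -0.60 ± 0.11 (SE; limma adjusted p = 0.0258 and 0.0387).

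The brush border sodium/proton exchanger Slc9a3, which reclaims sodium and drives acid secretion in the proximal tubule, read 7.05, 6.88, 7.0 and 6.87 in MWF, against 6.63, 6.72, 6.81 and 7.03 in SHR. The strains overlapped at SHR array 4 (0.16 ± 0.09, SE; limma adjusted p = 0.356). Slc9a2, another epithelial exchanger, differed by 0.35 ± 0.16 (SE; limma adjusted p = 0.24), and Slc9a8 by 0.04 ± 0.09 (SE; limma adjusted p = 0.846). Slc9a4, Slc9a5 and Slc9a7, of which the last resides in the Golgi, differed by 0.11, 0.16 and 0.08.

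**Figure D4:**
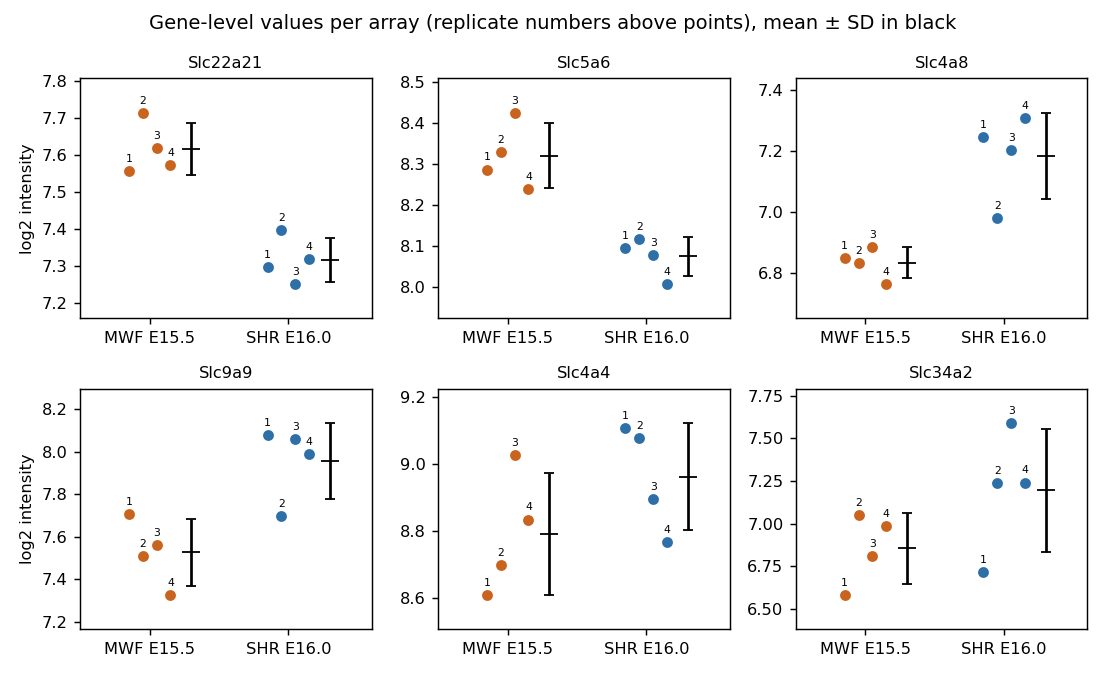
Gene-level log2 intensity of the 4 called members and of Slc4a4 and Slc34a2 on each array (points, with replicate numbers), MWF to the left of SHR, with the mean and SD of 4 arrays in black; vertical axes differ and do not start at 0. The strains are apart for Slc22a21, Slc5a6 and Slc4a8, meet at SHR array 2 for Slc9a9, and overlap for Slc4a4 and Slc34a2.

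The Slc12a family carries chloride with sodium, potassium or both. Of its 7 genes 6 were above 0 (median 0.10) and none was called at gene level, although 3 exon-level probe sets were, all higher in MWF. Slc12a2, the cotransporter that most cells use to regulate volume, was nearly the same in both strains, at 10.11 ± 0.09 in MWF and 10.12 ± 0.07 in SHR (SD, n = 4 each; difference -0.01 ± 0.06, SE; limma adjusted p = 0.922). Slc12a4 and Slc12a7, potassium chloride cotransporters, differed by 0.05 and 0.07. Slc12a1, the furosemide-sensitive cotransporter of the thick ascending limb, averaged 6.07 ± 0.12 in MWF and 5.97 ± 0.16 in SHR (SD, n = 4 each; limma adjusted p = 0.60), and its 31 exon-level probe sets split into 14 higher and 17 lower in MWF.

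Slc12a3, the thiazide-sensitive cotransporter of the distal convoluted tubule, differed by 0.22 ± 0.10 at gene level (SE; limma adjusted p = 0.234), with 22 of 27 exon-level probe sets above 0. Probe set 10809365 read 5.45, 4.85, 5.64 and 5.63 in MWF, against 4.29, 4.29, 4.23 and 4.65 in SHR (1.03 ± 0.19, SE; limma adjusted p = 0.0293). Probe set 10809351 was called too, at 0.77 ± 0.16 (SE; limma adjusted p = 0.0469). Both lay below the receptor reference of the exon level in all 8 arrays. The call of 10809365 was lost in 6 of the 8 fits with 1 array left out (0.95 to 1.21), and that of 10809351 in 7 (0.64 to 0.90). Slc12a5, the potassium chloride cotransporter of neurons, differed by 0.20 ± 0.07 at gene level (SE; limma adjusted p = 0.112). Its probe set 10842257 read 10.22, 10.22, 10.27 and 9.94 in MWF, against 9.72, 9.28, 9.15 and 9.25 in SHR, and it was called at 0.81 ± 0.14 (SE; limma adjusted p = 0.0257). The strains did not overlap on it, but 15 of the gene's 28 probe sets were lower in MWF, and the call was lost in 5 of the 8 fits with 1 array left out (0.74 to 0.94). Slc12a8 differed by 0.34 ± 0.13 (SE; limma adjusted p = 0.151), with 15 of 17 exon-level probe sets above 0.

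The Slc13a family brings sulfate, dicarboxylates and citrate into cells with sodium. None of its 5 genes was called, and 4 were above 0 (median 0.09). The brush border sulfate carrier Slc13a1 differed by 0.11 ± 0.08 (SE; limma adjusted p = 0.428), and Slc13a4, a sulfate carrier outside the kidney, by 0.03. The dicarboxylate carriers Slc13a2 and Slc13a3, of the brush border and the basolateral side, differed by 0.09 and 0.15. The citrate carrier Slc13a5 was at -0.08 ± 0.08 (SE; limma adjusted p = 0.641).

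The Slc17a family holds renal organic anion carriers beside lysosomal and synaptic vesicle carriers. None of its 6 genes was called and 4 were above 0 (median 0.08). Slc17a5, which exports sialic acid from lysosomes, read 9.86, 9.76, 9.93 and 9.53 in MWF, against 10.03, 9.95, 10.05 and 10.09 in SHR. All MWF arrays lay below all SHR arrays, SHR array 2 included, and 12 of 12 exon-level probe sets were below 0 with a median of -0.26. The gene-level difference of -0.26 ± 0.09 (SE) did not pass the test (limma adjusted p = 0.12). Slc17a3, a urate and organic anion carrier, and Slc17a2 differed by 0.21 ± 0.11 and 0.27 ± 0.14 (SE; limma adjusted p = 0.296 and 0.29). The vesicular glutamate carriers Slc17a7 and Slc17a8 differed by -0.10 and 0.01, and the vesicular nucleotide carrier Slc17a9 by 0.14. Slc17a1, a phosphate and urate carrier, was not analysed here.

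The Slc22a family carries organic cations, organic anions and carnitine. Of its 14 genes 12 were above 0 (median 0.14), and 1 was called. Slc22a21, a carnitine carrier studied in the mouse, rose in MWF. It read 7.56, 7.71, 7.62 and 7.57 on MWF arrays 1 to 4, against 7.30, 7.40, 7.25 and 7.32 on SHR arrays 1 to 4. All MWF arrays lay above all SHR arrays, and the means were 7.62 ± 0.07 in MWF and 7.32 ± 0.06 in SHR (SD, n = 4 each). The difference was 0.30 ± 0.06 (SE; limma adjusted p = 0.0221), or 1.23-fold. The call was lost without any 1 of MWF arrays 2 and 3 and SHR arrays 1, 3 and 4, at 0.27 to 0.33 with adjusted p up to 0.0664, and with the sympathoadrenal covariate it was 0.23 (adjusted p = 0.188).

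Slc22a21 lies on chromosome 10 with its close relative Slc22a5, the carnitine carrier of the proximal tubule, and probes of such similar genes can share signal, so its identity is uncertain. At exon level no probe set was named Slc22a21. Slc22a5 had 9 exon-level probe sets, all above the receptor reference of that level, of which 8 were above 0 with a median of 0.28 and none was called.

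The organic cation carriers were not called, and their exon-level probe sets were mixed. Slc22a2, of the basolateral side of the proximal tubule, read 6.92, 6.67, 6.73 and 6.81 in MWF, against 6.24, 6.43, 6.65 and 6.46 in SHR. There was no overlap, and the difference of 0.34 ± 0.09 (SE) missed the threshold (limma adjusted p = 0.0701). Slc22a3, a carrier of monoamines and other cations in many tissues, read 6.24, 6.47, 6.60 and 6.82 in MWF, against 5.90, 6.14, 6.29 and 6.15 in SHR. The strains met at MWF array 1 and SHR array 3 (0.41 ± 0.13, SE; limma adjusted p = 0.0885), and Slc22a22, an organic anion carrier, differed by 0.32 ± 0.11 (SE; limma adjusted p = 0.128). At exon level Slc22a2 had 7 probe sets higher and 4 lower in MWF (median 0.14), Slc22a3 had 7 and 4 (median 0.06), and Slc22a22 had 5 and 5 (median -0.01). From the median of the exon-level probe sets on each array the difference of Slc22a3 was 0.029 (limma adjusted p = 0.918) and that of Slc22a2 0.13 (limma adjusted p = 0.621). Slc22a2 and Slc22a22 were called at gene level without SHR array 3. Slc22a3 was called without MWF array 1 (0.51) and without both MWF array 1 and SHR array 2 (0.52).

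The organic anion and urate carriers differed little. Slc22a6 read 7.20, 7.13, 7.09 and 7.24 in MWF, against 7.20, 7.42, 7.35 and 6.97 in SHR, and the SHR arrays spanned all the MWF values (-0.07 ± 0.10, SE; limma adjusted p = 0.718). Slc22a8 differed by 0.02 ± 0.20 (SE; limma adjusted p = 0.969), and the urate carrier Slc22a12 by 0.10 ± 0.09 (SE; limma adjusted p = 0.586). Slc22a7 was at -0.06, and Slc22a13, Slc22a18, Slc22a20, Slc22a23 and Slc22a25 lay between 0.07 and 0.23. All 11 exon-level probe sets of Slc22a23 were above 0, with a median of 0.14 and none called. Slc22a15 differed by 0.07.

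The Slc34a family takes up phosphate with sodium. None of its 3 genes was called, and 2 were above 0 (median 0.08). Slc34a1, the main phosphate carrier of the brush border, read 6.99, 6.41, 6.34 and 6.58 in MWF, against 6.15, 6.33, 6.32 and 6.33 in SHR. The strains did not overlap but were close together apart from MWF array 1, and the difference was 0.29 ± 0.13 (SE; limma adjusted p = 0.23). Slc34a2, the carrier of lung and gut, read 6.58, 7.05, 6.81 and 6.99 in MWF, against 6.72, 7.24, 7.59 and 7.24 in SHR (-0.34 ± 0.18, SE; limma adjusted p = 0.295). Slc34a3, the second renal phosphate carrier, differed by 0.08 ± 0.08 (SE; limma adjusted p = 0.616).

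Over all families 9 of 1098 exon-level probe sets (0.82%) were called, in 7 genes, against 1.93% of all exon-level probe sets. In MWF 5 were higher, where 0.892% of all were, and 4 were lower, where 1.04% were. The strains did not overlap in 66 (6.01%), 39 higher and 27 lower in MWF, against 8.83% of all (4.24% higher and 4.59% lower). The calls fell in Slc4a (1 higher and 3 lower), Slc5a (1 higher), Slc9a (1 lower) and Slc12a (3 higher), and none fell in Slc13a, Slc17a, Slc22a or Slc34a. In the relative fit 7 of 1098 (0.638%) were called, 3 higher and 4 lower in MWF, against 1.05% (0.569% higher and 0.485% lower) of the 169246 probe sets of 13863 genes with at least 3 probe sets. They were 2 each of Slc4a4 and Slc9a9 and 1 each of Slc4a8, Slc5a6 and Slc5a4b. The Slc5a4b probe set, 10829610, differed by 0.71 ± 0.13 relative to its gene (SE; limma adjusted p = 0.0383).

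**Figure D5:**
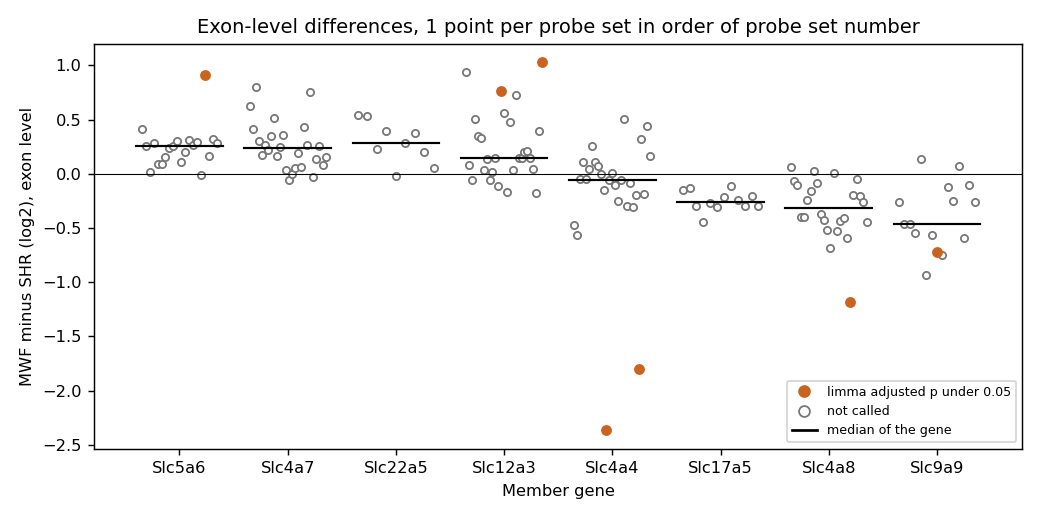
Exon-level difference in log2 intensity, MWF minus SHR (vertical axis), of every probe set of 8 member genes, 1 point per probe set in order of its number; filled points have an adjusted p under 0.05 and the bars are gene medians. Slc4a4 has 2 points at -2.37 and -1.81 while its median is -0.06, whereas the points of Slc5a6, Slc17a5, Slc4a8 and Slc9a9 lie mostly on one side of 0.

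Genes that work with these carriers were taken from 9 lists, and 38 of the 56 listed were measured. Of these 4 were called, all higher in MWF (3.18% of all probe sets were), and 24 were above 0 (median 0.06). Slc20a1, a phosphate carrier found in most cells, averaged 10.92 ± 0.04 in MWF and 10.53 ± 0.07 in SHR (SD, n = 4 each; 0.39 ± 0.06, SE; limma adjusted p = 0.00464). Sgk1, the kinase that stimulates sodium channels and cotransporters, averaged 9.83 ± 0.10 in MWF and 9.41 ± 0.10 in SHR (SD, n = 4 each; limma adjusted p = 0.013). Slc47a1, which passes organic cations into the urine, and Pdzk1ip1, a small membrane protein of the brush border, rose by 0.41 ± 0.09 and 0.34 ± 0.08 (SE; limma adjusted p = 0.0323 and 0.0462). Pdzk1ip1 also stood on the proximal tubule list, where 6 of 11 measured genes were lower in MWF.

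The calls were 1 of 9 kinase control genes, 1 of 4 brush border scaffolds, 1 of 4 phosphate genes and 1 of 6 genes of organic ion exit. None was called among 4 sodium pump genes, 4 carbonic anhydrases, 3 genes of glucose exit, 2 tubule transcription factors or 2 genes of chloride exit and potassium recycling.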

How the data were processed

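Embryonic kidneys of MWF (4 samples) and SHR (4 samples) were measured on Affymetrix arrays, grouped by the strain and age in the labels. The deposited values are log2 intensities per gene and per exon probe set, already summarised and comparable between arrays as seen from their medians (8.17 to 8.21 and 7.93 to 7.99). Partek is named per the submitters' processing notes. For its version, the summarisation, the normalization and the genome build of the array: not given in the sources used here. Symbols came from the platform annotation, updated through RefSeq (GRCr8): 12936 gene-level probe sets had 1 symbol, 184 several and 8251 none, and 172924, 1661 and 38482 at exon level. Members with several symbols (2 and 5 probe sets) were not named.

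Linear models were fitted (R 4.3.3, limma 3.58.1, functions lmFit and eBayes) over all probe sets of a level, without a filter or block, with Benjamini-Hochberg adjustment at 0.05. The relative exon-level fit used genes with at least 3 probe sets (7 probe sets without variance left out). On simulated data, the gene-level fit of 21371 probe sets recovered 74% of changes of 0.5 and 95% of changes of 1 (log2). The exon-level fit of 213067 recovered 58% of changes of 1 and 90% of changes of 2, and the relative fit 41% and 95%. False calls were 15 of 184, 7 of 155 and 12 of 148 calls. The simulated noise was independent between probe sets, without shifts shared along an array. All gene-level member differences were smaller than 0.5, and changes of their size were not simulated. Precision is limited by the number of arrays, since arrays have no read depth. No 2 arrays held identical values.

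The members and lists, and the receptor reference, were chosen with earlier results of these data known. Genes are named as called members, members without overlap, textbook carriers of the kidney (28 listed, 23 measured at gene level) and members above the receptor reference, with the remaining members in ranges. The relative fit, the receptor reference and 3 exon-level alternatives were added after seeing the data.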

Additional observations from a re-analysis of the deposited data

Results flagged for a closer look

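Among 94 groups of 4 arrays checked, over the named members and exon-level probe sets, 6 held a single array far from the other 3 by Dixon's ratio at the 95% level; chance gives such a gap in about 1 in 20 groups. In the exon-level probe set 10842257 of Slc12a5, MWF array 4 read 9.94 and the other MWF arrays 10.22 to 10.27. In probe set 10899297 of Slc4a8, MWF array 1 read 6.08 and the other MWF arrays 5.59 to 5.67, and SHR array 1 read 6.66 and the other SHR arrays 6.98 to 7.03. In probe set 10809365 of Slc12a3, SHR array 4 read 4.65 and the other SHR arrays 4.23 to 4.29. At gene level, SHR array 1 read 6.15 for Slc34a1, where the other SHR arrays read 6.32 to 6.33. SHR array 4 read 8.64 for Slc5a3, where the other SHR arrays read 8.84 to 8.88. The flagged arrays are not the same array throughout, and their cause was not tested.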

How the results depend on the processing

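The 4 gene-level calls were also 4 after quantile normalization, median centring and array weights. Trend and robust variance gave 3, without Slc5a6. With 1 array left out the count ran from 0 to 4: 0 without MWF array 2 or 3 or SHR array 1 or 4, 1 without MWF array 4, 2 (neither among the 4) without SHR array 3, 3 without MWF array 1 and 4 without SHR array 2. It was 0 with the sympathoadrenal covariate and 1 (Slc4a8) from medians of exon-level probe sets. The shares of all gene-level probe sets called in these fits are not given here. Testing only the probe sets above the median brightness gave 1 (Slc5a6) and left 12 members, so Slc4a8, Slc9a9 and Slc22a21 were not tested there. Against 9 exon-level calls, that filter gave 4 of 264 members, where 3.48% of all probe sets it kept were called. Of the 4, 2 were among the 9 (Slc9a9 and Slc12a5) and 2 were of Slc4a7. Both Slc4a4 probe sets were untested there. The exon-level count ran from 5 to 9 with 1 array left out. The share of all exon-level probe sets called also moved, from 1.13% to 2.91%, against 1.93% in the main fit. Same-numbered arrays correlated in their deviations at 0.098 to 0.284, and 3 of 4 MWF arrays best with their own number. Not every pair exceeded 0.1 and no label says that a number is shared, so the numbers were not taken as pairs, although the values hint at it. A replicate block gave 3 gene-level calls, 2 of them shared, and 2 exon-level calls, both shared (Slc4a4 10776021 and Slc4a8 10899297). Of all exon-level probe sets 1.02% were called with it. The block gained Slc22a3 (adjusted p = 0.0381) and left Slc4a8 (0.0575) and Slc5a6 (0.0707) uncalled at gene level, and Slc4a4 10776009 (0.0502) and Slc5a6 10883192 (0.07) at exon level.

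Of 765 alternative values of 47 named results, 661 kept direction and call status, 77 lost the call, 4 gained it and 23 turned direction. All that turned were uncalled. Most of the 47 were uncalled in the main fit, so the 661 include many that stayed uncalled. Only the 4 gene-level and 9 exon-level calls could lose a call, and the 77 losses fell in 11 of them. At gene level Slc5a6 lost its call in 12 of 18 alternatives, Slc4a8 in 9 of 17, Slc9a9 in 8 of 17 and Slc22a21 in 6 of 16. From medians of exon-level probe sets the differences were -0.0016 for Slc12a7, -0.0194 for Slc13a1, 0.0159 for Slc13a5, -0.0397 for Slc22a15, 0.17 for Slc22a6, -0.0204 for Slc34a1, 0.0333 for Slc34a2, -0.0570 for Slc5a1, -0.12 for Slc5a2 and -0.0266 for Slc9a8. Without SHR array 2 and MWF array 1 together they were 0.039 for Slc12a2, -0.0025 for Slc22a15 and -0.0193 for Slc9a8. With 1 array left out Slc12a2 ran from -0.0517 to 0.0137, Slc9a8 from -0.0190 to 0.10 and Slc22a8 from -0.13 to 0.16. Slc22a8 was -0.0017 after quantile normalization and -0.32 with the covariate. The cause was not tested. Between 43 and 50 members were above 0 in all settings but that filter (7 of 12). Of the 64 members 53 lie below the gene-level receptor reference, the 4 called ones included, of which Slc5a6 lies just under it.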
